A study of Homo sapiens with 8 samples.

Results

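U2OS cells that expressed the actin mutant G13R were compared with U2OS cells that expressed GFP, both sampled in normal growth. U2OS is an established human osteosarcoma line. Of the 8 libraries of the study, 4 belonged to this comparison, 2 of G13R cells and 2 of GFP cells. A gene was included when it had at least 1 FPKM (fragments scaled by transcript length and by the mapped fragments of the library) in at least 2 of the 8 libraries, which held for 12996 of 22504 genes. The other 4 libraries came from the same pair of cell populations after serum stimulation. They entered the fit to estimate the spread of each gene, and served as a second set in which the same genes could be read. The labels do not say which actin gene carries the mutation, what drives its expression, whether the cells were a clone or a pool, or how long serum was applied. They also do not say that the 2 libraries of a group came from separate cultures, and the spread that the p-values rest on may therefore be no more than technical.

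Actin exists as monomers and as filaments, and the balance between them is sensed by transcription coactivators of the MRTF family. Monomeric actin binds MRTF and keeps it from activating serum response factor (SRF), whose targets include actin itself and many genes of the contractile and adhesive apparatus. G13R is known as an actin mutant that does not assemble into filaments. Actin is folded by the chaperonin TRiC with the help of prefoldin, and unfolded protein in the cytosol activates heat shock factor HSF1, which switches on the inducible HSP70 chaperones. The study's title concerns nuclear actin, RNA polymerase II clustering and inducible transcription, and its labels set normal growth beside serum.

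Summed over all genes the G13R libraries held 496166 and 517504 FPKM, and the GFP libraries 542653 and 559496. Between 12065 and 12215 genes reached 1 FPKM in each of these 4 libraries. Log2 values of the 2 replicates correlated at 0.989 across genes in G13R cells and at 0.986 in GFP cells (Pearson's r, a description, since genes are not replicates). The depth of each library is unknown, because the values are FPKM without counts. Of the osteoblast lineage markers, SPARC, COL1A1, SPP1, ALPL and RUNX2 were detected, while SP7, IBSP and COL1A2 were at or near 0, so the labelled line was met by only some of these genes. The endothelial markers CDH5 and PECAM1 and the leukocyte marker PTPRC were near or at 0 FPKM in all 4 libraries. Markers of other cell types were not all absent: 0 of 6 endothelial, 2 of 7 leukocyte, 6 of 8 epithelial and 4 of 6 neural markers passed the filter. Differences below are G13R minus GFP on the log2(FPKM + 1) scale with a standard error, tested with limma, and a gene is called when its Benjamini-Hochberg adjusted p is under 0.05.

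In normal growth 6 genes were called (0.0462% of those tested). ACTB, HSPA6, HSPA1A, HSPA1B and PMEPA1 rose in G13R cells (5 genes, 0.0385% of 12996), and DBNDD2 fell (1 gene, 0.00769%). They encode beta-actin, 3 stress-inducible HSP70 chaperones, a membrane protein that is induced by TGF-beta and feeds back on it, and a protein with a dysbindin domain. An unadjusted limma p under 0.05 was reached by 434 genes that were higher (3.34%) and 1534 that were lower (11.8%). That split depended on the scaling: it was 656 higher and 634 lower after quantile normalization, and 643 and 921 after median-ratio scaling. It also rested on single libraries, with 674 lower genes without G13R replicate 1 and 853 without GFP replicate 2. Without the first or the second GFP serum library, which bear on the spread only, 23 or 24 genes were called higher and 62 or 63 lower. The 2 groups did not overlap in 1874 genes that were higher (14.4%) and 4457 that were lower (34.3%), and a difference of at least 2-fold was measured for 33 genes upward (0.254%) and 31 downward (0.239%). For groups of genes the text gives how many members reached an unadjusted p under 0.05 or did not overlap. These counts are to be read against those percentages, and the median difference against the all-gene median of -0.07. Quantile normalization brought the all-gene median to -0.00, a shift of under 0.1.

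**Figure D1:**
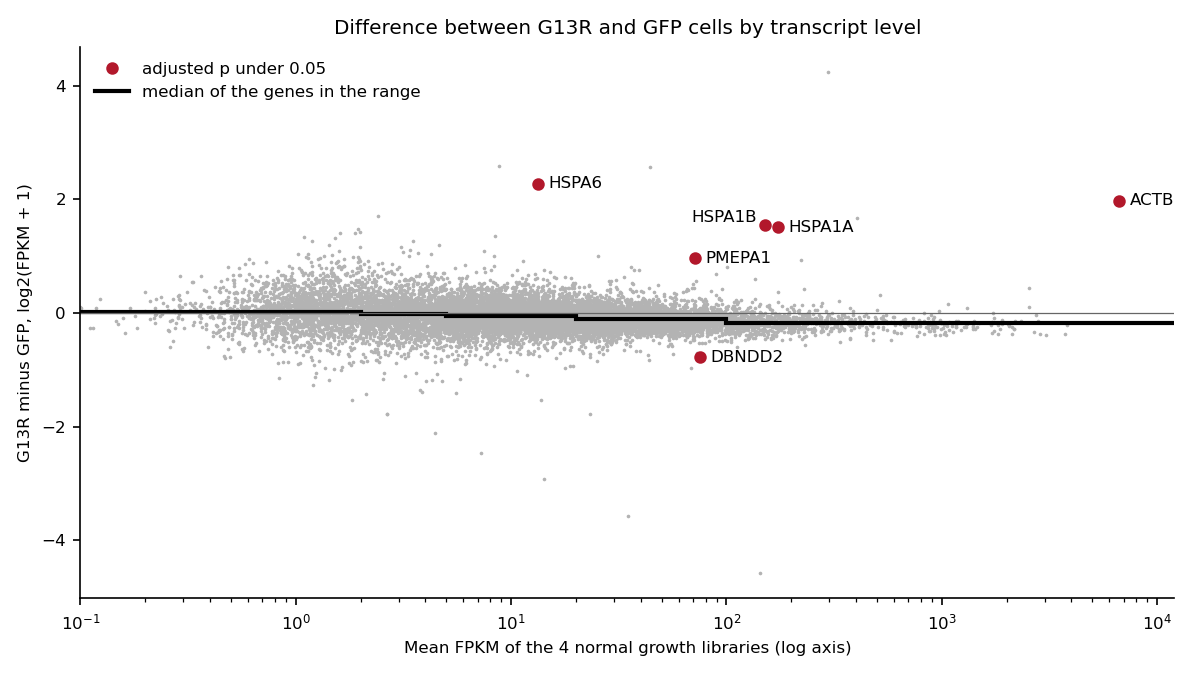
Each point is 1 of the genes tested: the x axis gives its mean FPKM over the 4 normal growth libraries on a log axis, and the y axis its difference between G13R and GFP cells in log2(FPKM + 1). The 6 called genes are red and named, and the black line, the median within ranges of level, runs from 0.02 under 2 FPKM to -0.17 over 100 FPKM.

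ACTB, in hg19 at chr7:5566782-5603415, was measured at 11245 and 10011 FPKM in the G13R libraries and at 2602 and 2779 FPKM in the GFP libraries. Both G13R libraries lay far above both GFP libraries. The means were 10628 ± 873 and 2690 ± 125 FPKM (SD, n = 2 each), a ratio of 3.95 and a difference of 1.98 ± 0.08 on the log2 scale (limma adjusted p = 2.80e-06). Under quantile normalization, in which the most abundant genes are held to a common value, the difference was 1.31. ACTB took 2.27% and 1.93% of the summed FPKM in G13R cells, and 0.480% and 0.497% in GFP libraries. Reads of an introduced actin transcript and of the cell's own gene cannot be told apart in these values.

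No other actin gene was called. ACTG1, cytoplasmic gamma-actin, stood at 1846 and 1937 FPKM in G13R cells and at 2075 and 2309 in GFP cells, so the groups did not overlap and G13R was the lower one, but the difference of -0.21 ± 0.08 was not called (limma adjusted p = 0.257) and was 0.01 after quantile normalization. ACTA2, smooth muscle alpha-actin, was low, with 3.88 and 3.44 against 3.10 and 5.12 FPKM, and the groups overlapped. ACTA1, ACTC1, ACTG2 and ACTBL2 did not pass the filter on low values, with at most 0.51 FPKM in any normal growth library. Of the 7 actin genes listed, 3 were therefore tested and 1 was called.

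The inducible HSP70 genes formed the second group of called genes. HSPA6 (hg19 chr1:161494036-161496681) stood at 23.7 and 21.6 FPKM in G13R cells and at 3.90 and 3.84 in GFP cells, a ratio of 5.85 and a difference of 2.28 ± 0.15 (limma adjusted p = 0.000162). HSPA1A (hg19 chr6:31783291-31785723) stood at 274.6 and 242.2 FPKM against 94.5 and 85.8, a difference of 1.51 ± 0.11 (adjusted p = 0.00022). HSPA1B (hg19 chr6:31795512-31798031) stood at 241.5 and 211.9 FPKM against 79.2 and 73.8, a difference of 1.55 ± 0.11 (adjusted p = 0.00022). In each of the 3 genes both G13R libraries were above both GFP libraries, by a wide margin against the spread within a group. HSPA1A and HSPA1B are nearly identical neighbours, so how reads were divided between them is uncertain, and they are not independent observations. HSPA7, a close neighbour and relative of HSPA6 with which it can share reads, was measured at 2.43 and 2.77 FPKM against 0.490 and 0.408, a difference of 1.31 ± 0.20 that was not called (adjusted p = 0.0622).

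The other HSP70 and HSP110 genes listed differed from these. HSPA8, the abundant constitutive chaperone of the cytosol, stood at 1114 and 1101 FPKM in G13R cells and at 1228 and 1215 in GFP cells, a difference of -0.14 ± 0.08 (adjusted p = 0.453) that was 0.07 after quantile normalization. Of the 11 other HSP70 and HSP110 genes tested, 0 had an unadjusted limma p under 0.05 upward and 2 downward, HSPA4, a cytosolic nucleotide exchange factor, and HSPA5, the chaperone of the endoplasmic reticulum. Their median was -0.17, and -0.05 after quantile normalization.

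The promoters of these genes show one sequence feature that could be counted. HSF1 binds repeats of a short unit, GAA or its complement TTC, in alternating orientation. The 250 bases before the transcription start of each gene were taken from RefSeq (build GRCh38.p14) and searched on both strands for 3 alternating units, GAANNTTCNNGAA or TTCNNGAANNTTC, and, after that form was found in HSPA6 but not in HSPA1A or HSPA1B, for 2 units, GAANNTTC or TTCNNGAA, with overlapping matches counted separately. The sequences of the 3 called HSP70 genes and of HSPA8 are shown because they share the 2-unit form while their transcripts differed between G13R and GFP cells in unlike ways. Capitals mark the 2-unit matches, and each sequence runs 5′ to 3′ on the gene's own strand and ends at the base before the start.
HSPA1A, chr6:31815293-31815542, plus strand: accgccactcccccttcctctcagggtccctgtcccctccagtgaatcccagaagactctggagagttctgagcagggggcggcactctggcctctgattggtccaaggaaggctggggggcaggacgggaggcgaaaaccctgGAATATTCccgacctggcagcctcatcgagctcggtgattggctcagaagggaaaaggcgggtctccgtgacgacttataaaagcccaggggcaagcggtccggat
HSPA1B, chr6:31827488-31827737, plus strand: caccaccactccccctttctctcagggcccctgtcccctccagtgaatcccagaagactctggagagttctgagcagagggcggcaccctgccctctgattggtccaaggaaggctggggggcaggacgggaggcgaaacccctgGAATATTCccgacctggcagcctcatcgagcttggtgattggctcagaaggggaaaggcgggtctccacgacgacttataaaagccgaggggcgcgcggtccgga
HSPA6, chr1:161524290-161524539, plus strand: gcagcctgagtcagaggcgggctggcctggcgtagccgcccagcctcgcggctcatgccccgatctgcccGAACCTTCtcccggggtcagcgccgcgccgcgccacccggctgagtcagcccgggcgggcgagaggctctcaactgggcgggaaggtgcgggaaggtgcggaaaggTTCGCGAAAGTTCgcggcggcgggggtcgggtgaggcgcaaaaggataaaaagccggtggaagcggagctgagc
HSPA8, chr11:123062137-123062386, minus strand: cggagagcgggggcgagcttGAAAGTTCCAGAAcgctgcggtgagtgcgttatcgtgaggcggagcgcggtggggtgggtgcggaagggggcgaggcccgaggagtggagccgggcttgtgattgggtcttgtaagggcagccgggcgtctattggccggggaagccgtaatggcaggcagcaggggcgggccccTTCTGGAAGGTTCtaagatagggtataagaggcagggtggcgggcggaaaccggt
The 2-unit form was present in 3 of 3 inducible HSP70 promoters, in 11.6% of all 35116 RefSeq promoters of this length and in 8.63% of those of tested genes. Of 17 promoters of heat shock factors and their other targets, 6 held it (35.3%), those of CHORDC1, DNAJA1, DNAJB6, HSPB1, HSPB8 and SERPINH1. DNAJB1, BAG3 and CRYAB, whose values are given below, were not among the 6. HSPA1A and HSPA1B hold a single match each, the same GAATATTC, beginning 106 and 105 bases before the start. HSPA6 holds 3 matches and HSPA8 holds 4, and overlapping ones form a single run of capitals. The 3-unit form was present in 0.441% of all promoters, HSPA6 and HSPA8 among them, and in 3 of those 17 (17.6%). A match is a run of letters and says nothing by itself about binding, and HSPA8, whose promoter also holds matches, was not higher in G13R cells.

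Other genes of the heat shock response varied. HSF1 itself was at 112.3 and 123.4 FPKM against 119.5 and 128.8, and the groups overlapped. Of 21 heat shock factors and other HSF targets, 4 had an unadjusted limma p under 0.05 upward and 4 downward, none was called, and the median of -0.10 became 0.04 after quantile normalization. DNAJB1, the HSP40 partner of HSP70, stood at 111.4 and 107.7 FPKM against 80.9 and 82.1, a difference of 0.42 ± 0.08 (adjusted p = 0.0857). BAG3, a cochaperone of HSP70, stood at 53.1 and 51.0 FPKM against 40.26 and 40.22, a difference of 0.36 ± 0.11 (adjusted p = 0.181). The small heat shock protein CRYAB was at 54.9 and 39.1 FPKM against 25.2 and 29.3, a difference of 0.75 ± 0.22 (adjusted p = 0.181). In these 3 genes both G13R libraries were above both GFP libraries, and the fourth of the upward members was HSPB1, at 0.31. Among the 4 downward members were HSF2, HSP90AB1 and SERPINH1, with differences from -0.20 to -0.36. HSPB1 and these 3 were named after their values were seen.

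No subunit of the chaperonin TRiC or of prefoldin, which fold newly made actin, was called. All 15 subunits had a difference below 0, from -0.34 to -0.09, and the median was -0.18. An unadjusted limma p under 0.05 was reached by 5, and 14 did not overlap between the groups (34.3% of all genes, downward). The median level of the subunits was 225 FPKM. All genes over 100 FPKM had a median of -0.17, with 42.7% past that p downward. The part of level in the difference of the subunits was not tested. After quantile normalization the median of the subunits was -0.04 and 2 were under that p. CCT3 stood at 233.9 and 252.6 FPKM in G13R cells and at 302.7 and 312.5 in GFP cells, the lowest difference of the list at -0.34 ± 0.07 (adjusted p = 0.117). Of 16 genes of the endoplasmic reticulum and its unfolded protein response, 0 were past the unadjusted p upward and 3 downward, the lectin chaperones CALR and CANX and the disulfide isomerase PDIA6, and after quantile normalization 2 were upward and 0 downward. Of 15 targets of ATF4, the factor of the amino acid stress response, 0 were past it in either direction and 0 were called.

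**Figure D2:**
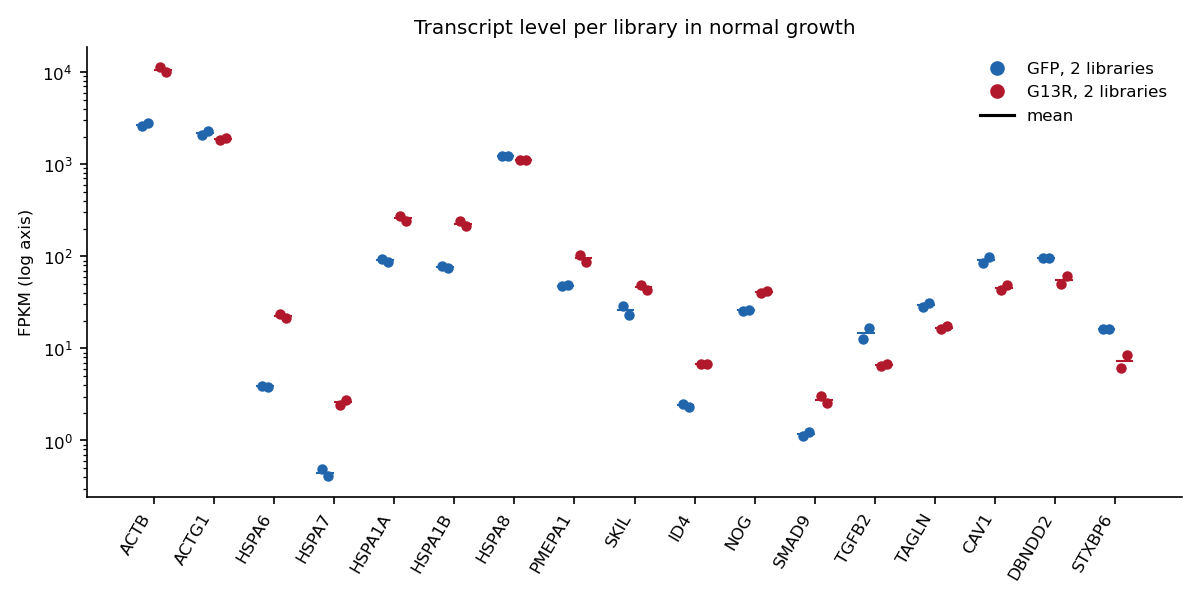
FPKM on a log axis of genes named in the text, with 1 point for each library, 2 of GFP cells in blue and 2 of G13R cells in red, and a bar at the mean. ACTB and the inducible HSP70 genes stand apart most clearly, ACTG1 and HSPA8 lie close together in both groups, and TGFB2, TAGLN, CAV1, DBNDD2 and STXBP6 are lower in G13R cells.

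Genes induced by TGF-beta mostly had higher values in G13R cells. Several components of the pathway itself had lower ones, but as a list the components did not lean low. TGF-beta ligands bind receptor kinases that activate SMAD2 and SMAD3, and with SMAD4 these switch on targets, several of which damp the pathway. PMEPA1 (hg19 chr20:56223448-56286592), one such inhibitor, stood at 103.5 and 87.0 FPKM in G13R cells and at 47.2 and 48.9 in GFP cells, a ratio of 1.98 and a difference of 0.97 ± 0.12 (limma adjusted p = 0.0268). Both G13R libraries were well above both GFP libraries. The call did not hold in 8 of 18 other settings, among them leaving out any 1 normal growth library, and its adjusted p ran from 0.00492 to 0.334. SKIL, a corepressor of SMADs, stood at 49.3 and 42.9 FPKM against 28.6 and 23.1, a difference of 0.82 ± 0.12 (adjusted p = 0.0612). CDKN2B, a cell cycle inhibitor induced by TGF-beta, stood at 7.63 and 2.74 FPKM against 1.63 and 1.60, a difference of 1.12 ± 0.31 (adjusted p = 0.172) in which the 2 G13R libraries were far apart. TGFBI, an extracellular matrix protein chosen here after its values were seen, stood at 50.2 and 49.4 FPKM against 28.3 and 29.4, a difference of 0.77 ± 0.13.

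Over the 17 TGF-beta targets tested, 9 had an unadjusted limma p under 0.05 upward and 2 downward, 1 was called, and the median was 0.35 (0.42 after quantile normalization). The 2 downward members were fibronectin (FN1) and TAGLN. TAGLN, transgelin, which is an SRF target as well, stood at 16.2 and 17.5 FPKM in G13R cells and at 28.4 and 30.8 in GFP cells, a difference of -0.78 ± 0.11 (adjusted p = 0.0581). Of the 16 ligands, receptors and SMADs, 0 were past that p upward and 6 downward. Their median was -0.07, against -0.07 for all genes, with 8 above 0 and 8 below. After quantile normalization it was -0.00, with 1 past that p upward and 4 downward. TGFB2, a ligand, stood at 6.41 and 6.85 FPKM against 12.7 and 16.7, a difference of -1.03 ± 0.22 (adjusted p = 0.115), and INHBE, an activin subunit, at 0.753 and 1.16 against 2.80 and 2.37, a difference of -0.88 ± 0.21 (adjusted p = 0.153). The receptor TGFBR3 had a difference of -0.86 ± 0.23, and SMAD2, SMAD3 and SMAD4, named after their values were seen, had differences of -0.26, -0.34 and -0.41. The ligand TGFB1 and the receptor TGFBR2 had differences of 0.03 and 0.05, neither past that p.

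The ID genes and feedback genes of the related BMP pathway leaned the same way as the TGF-beta targets. ID proteins block the DNA binding of differentiation factors and are induced by BMP signals through SMADs. Of 14 genes tested, 10 had both G13R libraries above both GFP libraries (14.4% of all genes). An unadjusted limma p under 0.05 was reached by 6 upward and 0 downward, and none was called. The median of the 14 was 0.33 (0.41 after quantile normalization). ID4 stood at 6.834 and 6.830 FPKM against 2.52 and 2.29, a difference of 1.20 ± 0.23 (adjusted p = 0.0934). NOG, noggin, a secreted BMP antagonist, stood at 40.3 and 41.6 FPKM against 25.7 and 26.3, a difference of 0.63 ± 0.10 (adjusted p = 0.0622). SMAD9, a BMP SMAD, stood at 3.02 and 2.53 FPKM against 1.11 and 1.25, a difference of 0.79 ± 0.23 (adjusted p = 0.181). The other 3 past the unadjusted p were ID2, ID3 and the inhibitor SMAD6, with differences of 0.72, 0.81 and 0.83, while the ligand BMP4 differed by -0.01.

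SRF and MRTF targets were on the low side, with ACTB counted apart from them. Of 27 tested, 19 had both G13R libraries below both GFP libraries (34.3% of all genes). An unadjusted limma p under 0.05 was reached by 0 upward and 10 downward, and none was called. The median was -0.18, and -0.03 after quantile normalization, under which 0 were past that p upward and 7 downward. LIMA1, an actin crosslinker, stood at 38.3 and 38.2 FPKM in G13R cells and at 53.1 and 53.7 in GFP cells, a difference of -0.47 ± 0.09 (adjusted p = 0.0917). The calponin CNN2 stood at 51.1 and 60.9 FPKM against 75.2 and 75.6, a difference of -0.43 ± 0.11, and the myosin light chain MYL6 at 180.9 and 191.1 against 260.3 and 293 FPKM, a difference of -0.57 ± 0.15 (adjusted p = 0.162 and 0.164). VCL, vinculin, stood at 25.4 and 26.5 FPKM against 31.5 and 35.5, a difference of -0.36 ± 0.11 (adjusted p = 0.183). SRF itself was at 22.9 and 24.9 FPKM against 25.4 and 26.0, and of its 6 cofactors tested 0 were past the unadjusted p. FLNA, filamin A, is listed at 374.4 and 393.8 FPKM in G13R cells, at 413.4 in GFP replicate 1 and at 0 in GFP replicate 2, so its value there can be a failed estimate and no fold is given.

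A sequence check on the same 250 bases gave a CArG box, the SRF motif, in 5 of 26 SRF and MRTF target promoters (19.2%, against 1.16% of all promoters), those of CNN2, FHL2, FLNA, SRF and TPM4. Among these 5, CNN2 was past the unadjusted p and lower in G13R cells, and FHL2, SRF and TPM4 were not past it.

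None of the listed genes that handle actin monomers or filaments was called. Of 23 monomer-binding and severing genes, 0 had an unadjusted limma p under 0.05 upward and 5 downward, with a median of -0.16 that became -0.01 after quantile normalization. CFL1, cofilin, which severs filaments, stood at 774.8 and 872.2 FPKM in G13R cells and at 980.4 and 1067 in GFP cells, a difference of -0.31 ± 0.09 (adjusted p = 0.172). TMSB4X, thymosin beta 4, which sequesters monomers, stood at 189 and 201.2 FPKM against 245.4 and 279.1, a difference of -0.42 ± 0.15 (adjusted p = 0.238). Of 23 formins and Arp2/3 subunits, which nucleate filaments, 0 were past the unadjusted p and the median was -0.01. Of 13 genes of nuclear actin transport and nuclear actin-related proteins, 1 was past it upward, the actin oxidase MICAL1 (0.37), and 4 downward, among them the nuclear envelope protein EMD (-0.35) and the transport GTPase RAN (-0.27).

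Adhesion and matrix genes held some of the clearest single differences. CAV1, caveolin 1, the coat protein of caveolae, stood at 43.1 and 48.5 FPKM in G13R cells and at 83.7 and 98.2 in GFP cells, a difference of -0.97 ± 0.14 that fell short of the call (limma adjusted p = 0.0581). The integrin ITGA2 stood at 17.2 and 17.5 FPKM against 12.8 and 11.3, a difference of 0.49 ± 0.15. Of 21 integrins, laminins and focal adhesion genes, 3 were past an unadjusted p of 0.05 upward and 2 downward. Among 17 YAP and TEAD targets, genes driven by adhesion and tension, 1 was upward and 2 downward. These 2 were AJUBA, a LIM protein, at 19.1 and 21.5 FPKM against 29.7 and 32.0 (-0.58 ± 0.11, adjusted p = 0.0844), and CYR61 at 125.1 and 112.9 against 162.2 and 149.9 (-0.39 ± 0.11). CTGF, with CYR61 the best known of these targets, differed by -0.16 ± 0.09, and by -0.01 after quantile normalization.

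Of 18 collagens and matrix proteins, 1 had an unadjusted limma p under 0.05 upward and 4 downward. COL12A1 stood at 19.05 and 20.7 FPKM against 28.1 and 32.9 (-0.59 ± 0.13), and SPARC, a matrix protein abundant in bone, at 384.4 and 423.5 against 519.1 and 599.3 (-0.47 ± 0.12). Of 15 matrix proteases and inhibitors, 3 were upward and 3 downward. MMP3, stromelysin 1, stood at 277 and 305.3 FPKM in G13R cells and at 174.8 and 131.8 in GFP cells, a difference of 0.93 ± 0.21 (adjusted p = 0.134). ADAMTS12 stood at 11.5 and 10.6 FPKM against 14.3 and 20.2, a difference of -0.58 ± 0.15.

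Cell cycle genes were low in G13R cells together. Of 27 genes of G2/M and mitosis, 27 had a difference below 0, from -0.65 to -0.16. Both G13R libraries were below both GFP libraries in 26 (34.3% of all genes). An unadjusted limma p under 0.05 was reached by 23 (11.8% of all genes, downward), though none was called. The median was -0.34, and after quantile normalization it was -0.21 with 10 genes past that p. BUB1B, a spindle checkpoint kinase, stood at 20.9 and 22.3 FPKM against 31.7 and 37.2, a difference of -0.64 ± 0.13 (adjusted p = 0.094). CDCA3 stood at 24.2 and 27.5 FPKM against 41.6 and 40.2, a difference of -0.65 ± 0.13 (adjusted p = 0.1). CDC20, the activator of the anaphase-promoting complex, stood at 144.5 and 160.1 FPKM against 203.3 and 220.1, a difference of -0.47 ± 0.10 (adjusted p = 0.117). Of 26 genes of G1/S and DNA replication, 0 were past that p upward and 14 downward, with a median of -0.26, and 5 were downward after quantile normalization. The helicase subunit MCM3 stood at 56.3 and 62.2 FPKM against 80.2 and 85.2 (-0.48 ± 0.09, adjusted p = 0.088), and TYMS, thymidylate synthase, at 135.6 and 138.1 against 176.3 and 193.8 (-0.43 ± 0.09). In bulk RNA fewer cells in a phase and less of the transcript in each cell cannot be told apart.

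Many G2/M promoters hold the cell cycle homology region, a short motif near the start through which the DREAM complex acts. On the 250 bases before the start, searched on both strands for TTTGAA or TTCGAA, it was found in 11 of 22 G2/M promoters (50%), in 2 of 22 G1/S promoters (9.09%), in 14.3% of all promoters and in 9.39% of those of tested genes. CCNB2, mitotic cyclin B2, and PLK1, the mitotic kinase, are shown as examples chosen after their values were seen, with the match in capitals. In both it begins 29 bases before the start.
CCNB2, chr15:59104896-59105145, plus strand: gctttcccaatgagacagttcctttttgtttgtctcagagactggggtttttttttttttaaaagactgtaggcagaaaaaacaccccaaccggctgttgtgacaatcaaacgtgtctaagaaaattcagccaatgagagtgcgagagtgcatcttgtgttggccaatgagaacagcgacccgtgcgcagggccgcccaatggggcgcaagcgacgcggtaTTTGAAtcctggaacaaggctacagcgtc
PLK1, chr16:23678639-23678888, plus strand: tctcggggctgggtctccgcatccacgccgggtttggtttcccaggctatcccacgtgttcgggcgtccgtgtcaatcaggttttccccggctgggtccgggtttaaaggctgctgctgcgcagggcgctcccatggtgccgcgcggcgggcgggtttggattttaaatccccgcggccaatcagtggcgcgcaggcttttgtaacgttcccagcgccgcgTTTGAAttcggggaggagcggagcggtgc
CCNB2 stood at 47.3 and 49.1 FPKM in G13R cells and at 62.2 and 65.5 in GFP cells, a difference of -0.40 ± 0.10, and PLK1 at 60.4 and 61.3 against 77.2 and 78.5, a difference of -0.35 ± 0.10. Neither was called.

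**Figure D3:**
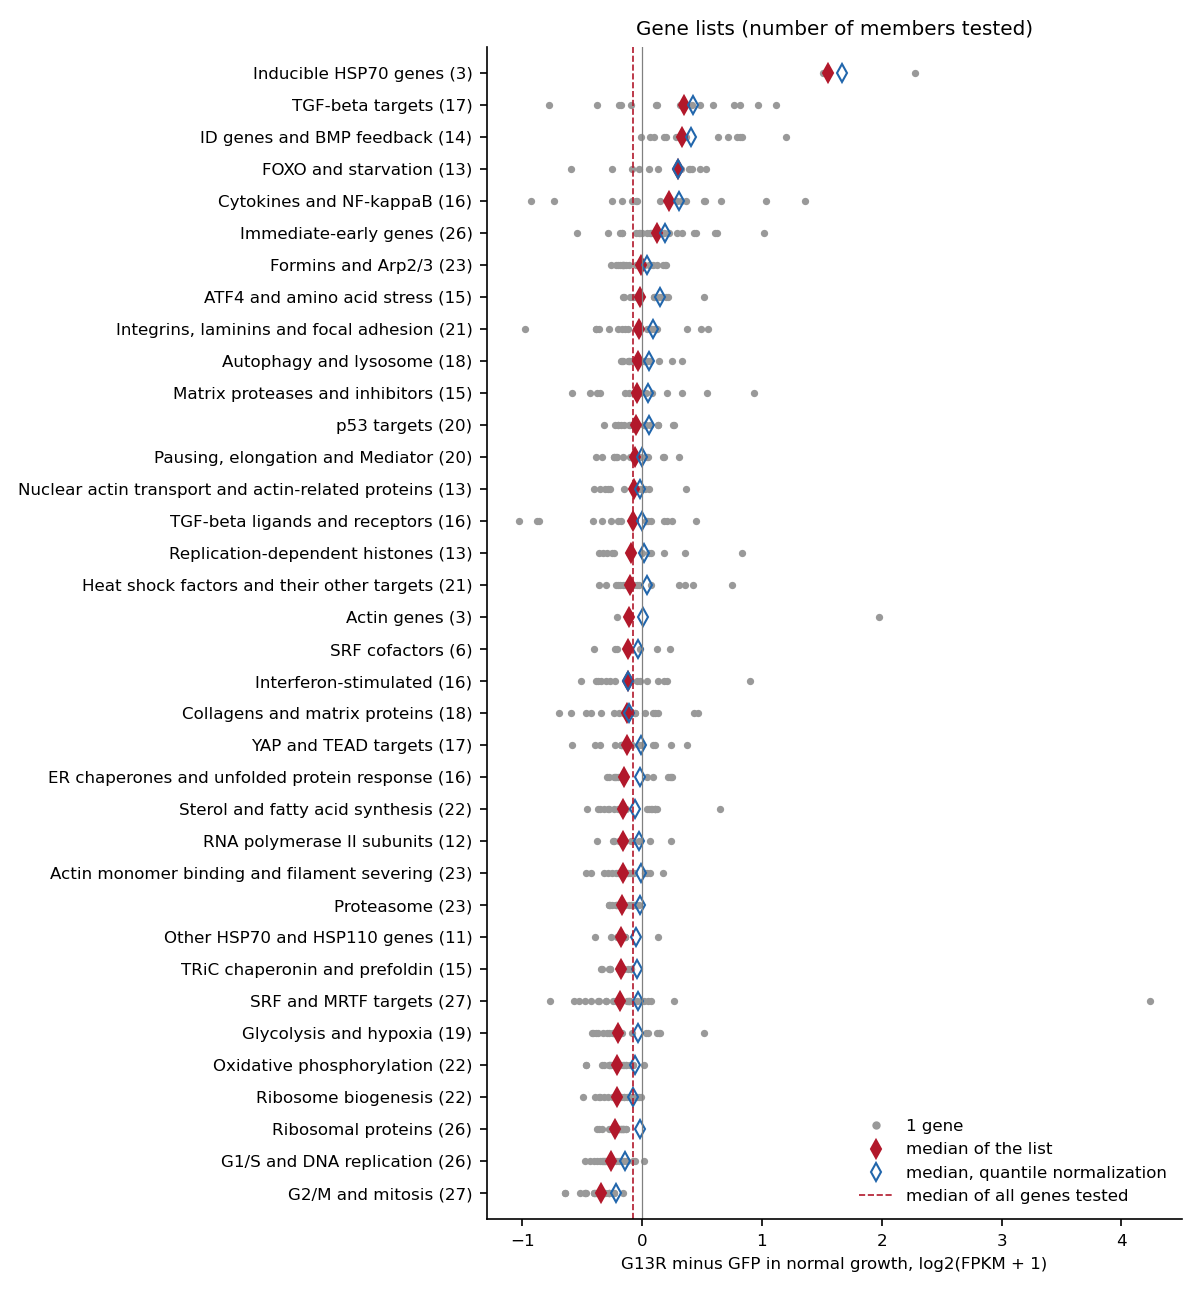
For each gene list, with its number of tested members in brackets, grey points give every member's difference between G13R and GFP cells in log2(FPKM + 1), the filled diamond the median and the open diamond the median after quantile normalization. The dashed line is the all-gene median of -0.07. Medians of the inducible HSP70 genes lie farthest right, those of TGF-beta targets and ID genes right of the line, and those of G2/M genes farthest left under both scalings. The single point past 4 is FLNA, listed at 0 in 1 GFP library.

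Lists of abundant housekeeping genes were also low, and this moved with the level of the transcript. The median difference was 0.02 for genes under 2 FPKM, -0.05 between 5 and 20 FPKM, -0.11 between 20 and 100 FPKM and -0.17 for the 880 genes over 100 FPKM, of which 42.7% had an unadjusted limma p under 0.05 downward and 1.82% upward. After quantile normalization the median of each of these ranges was between -0.01 and 0.00. The 26 ribosomal protein genes had a median level of 1136 FPKM and a median difference of -0.22, with 20 past that p downward and 0 upward, and after quantile normalization the median was -0.01 with 2 downward. RPL23 stood at 870.2 and 914.9 FPKM in G13R cells and at 1112 and 1182 in GFP cells (-0.36 ± 0.09, adjusted p = 0.153). The proteasome (23 genes), oxidative phosphorylation (22 genes) and glycolysis (19 genes) had medians of -0.17, -0.21 and -0.20, with 10, 7 and 9 members past that p downward and 0 upward. After quantile normalization 0, 2 and 5 members were downward. The part of the larger ACTB share in this lean was not tested.

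Within these lists some members stood out from the median. LDHA, lactate dehydrogenase A, stood at 811.3 and 897 FPKM against 1096 and 1127 (-0.38 ± 0.08, adjusted p = 0.11), and SLC2A1, the glucose transporter GLUT1, at 52.4 and 59.6 against 70.8 and 79.0 (-0.41 ± 0.09, adjusted p = 0.134). Of 22 ribosome biogenesis genes, 7 had an unadjusted limma p under 0.05 downward and 0 upward. The nucleolar protein NPM1 stood at 2598 and 2647 FPKM against 3375 and 3519, a difference of -0.39 ± 0.08 that was -0.36 after quantile normalization. Nucleolin (NCL) stood at 540.1 and 547.2 FPKM against 695.8 and 689.9, a difference of -0.35 ± 0.08 that was -0.16 after it. In both genes the 2 groups were well apart.

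RNA polymerase II, the enzyme named in the study's title, differed little in its transcripts. POLR2A, its largest subunit, stood at 472.3 and 478.8 FPKM in G13R cells and at 506.3 and 496.5 in GFP cells, a difference of -0.08 ± 0.07 (adjusted p = 0.659). Of 12 subunits, 0 had an unadjusted limma p under 0.05 upward and 3 downward, POLR2B, POLR2H and POLR2L, with differences of -0.23, -0.24 and -0.38. After quantile normalization 1 was downward. Of 20 genes of pausing, elongation and Mediator, 1 was past that p upward, the Mediator subunit MED14 (0.30), and 1 downward, cyclin C (CCNC, -0.38).

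Immediate-early genes, which serum switches on through SRF and other factors, were measured here in normal growth. The labels do not say whether cells were starved before serum. FOS stood at 4.84 and 6.70 FPKM in G13R cells and at 4.04 and 4.61 in GFP cells, a difference of 0.34 ± 0.30 (limma adjusted p = 0.639). EGR1 stood at 22.7 and 20.2 FPKM against 19.99 and 18.3, and MYC at 100.3 and 100.8 against 110 and 98.9. FOSB, at 2.01 and 2.60 FPKM against 0.888 and 0.404, had the largest difference of the list, 1.02 ± 0.32 (adjusted p = 0.197). Of 26 tested, 15 had both G13R libraries above both GFP libraries (14.4% of all genes) and 4 the reverse (34.3%). The median was 0.13. An unadjusted limma p under 0.05 was reached by 3 upward, FOSB among them, and 0 downward. The other 2 were KLF10 and MCL1.

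Cytokine and NF-kappaB genes diverged. IL8, a chemokine that attracts neutrophils, stood at 14.6 and 10.4 FPKM in G13R cells and at 5.23 and 3.33 in GFP cells, a difference of 1.36 ± 0.24 (adjusted p = 0.0831). CXCL3, a related chemokine, stood at 6.88 and 5.26 FPKM against 2.91 and 2.01, a difference of 1.03 ± 0.21 (adjusted p = 0.11). PTX3, the secreted pentraxin, went the other way, at 11.2 and 14.1 FPKM against 25.8 and 23.7, a difference of -0.92 ± 0.19 (adjusted p = 0.11). Of 16 such genes, 5 had an unadjusted limma p under 0.05 upward and 2 downward. Of 16 interferon-stimulated genes, 1 was upward, IRF7 (0.90), and 3 downward. Of 13 FOXO and starvation genes, 4 were upward and 1 downward. FBXO32, a ubiquitin ligase induced on starvation, stood at 7.57 and 7.62 FPKM against 5.22 and 5.83 (0.40 ± 0.12), and TXNIP, the thioredoxin inhibitor that follows glucose supply, at 8.226 and 7.002 against 12.8 and 11.2 (-0.59 ± 0.15). None of these genes was called.

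In the remaining lists few members stood out. Of 22 sterol and fatty acid synthesis genes, 1 had an unadjusted limma p under 0.05 upward, INSIG1, the sterol sensor's retention protein, at 4.83 and 4.48 FPKM against 2.52 and 2.68 (0.65 ± 0.19, adjusted p = 0.181), and 4 downward, the fatty acid synthase FASN among them (-0.35). Of 20 p53 targets 0 were past it in either direction, and of 18 autophagy and lysosome genes 0. Of 13 replication-dependent histone genes, 1 was upward, HIST1H4H, at 12.1 and 9.87 FPKM against 5.25 and 6.21 (0.83 ± 0.15, adjusted p = 0.0864), and 2 downward. The keratin KRT18 stood at 259.2 and 299.3 FPKM against 373.4 and 420.4, a difference of -0.51 ± 0.10 (adjusted p = 0.0909), and its partner KRT8 differed by -0.26 ± 0.11. The leukocyte integrin ITGAM stood at 5.38 and 3.92 FPKM against 1.70 and 1.64, a difference of 1.07 ± 0.23 (adjusted p = 0.117), while PTPRC, CD3E and LYZ were below 0.1 FPKM in every normal growth library. Of the 7 leukocyte markers listed 2 passed the filter, ITGAM and 1 that differed by -0.04.

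DBNDD2 (hg19 chr20:44034697-44039250) was the one called gene that fell. It stood at 50.2 and 60.7 FPKM in G13R cells and at 94.8 and 96.1 in GFP cells, a ratio of 0.581 and a difference of -0.78 ± 0.10 (limma adjusted p = 0.0268). It overlaps the read-through gene SYS1-DBNDD2, with which reads can be shared. Its call did not hold in 7 of 18 other settings, among them leaving out GFP replicate 1, GFP replicate 2 or G13R replicate 1, and the adjusted p ran from 0.0150 to 0.297.

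Some genes outside the lists had larger differences but did not pass the adjusted test. TERT, the catalytic subunit of telomerase, stood at 2.87 and 3.82 FPKM in G13R cells and at 0.657 and 0.446 in GFP cells, a difference of 1.48 ± 0.23 (limma adjusted p = 0.0622). U2OS is known as a line that keeps its telomeres without telomerase, by recombination. STXBP6, a binding partner of the membrane fusion machinery, stood at 6.14 and 8.38 FPKM against 16.4 and 16.3, a difference of -1.09 ± 0.16 (adjusted p = 0.0581). GSG1 stood at 2.58 and 1.60 FPKM against 6.75 and 5.22 (-1.19 ± 0.21, adjusted p = 0.0754), and ZNF236, a zinc finger protein, at 2.99 and 2.15 against 6.96 and 10.1 (-1.41 ± 0.25, adjusted p = 0.0754). STXBP6, GSG1 and ZNF236 were thus low in both G13R libraries. The neurotrophin receptor NGFR stood at 4.60 and 4.66 FPKM against 1.92 and 1.20, a difference of 1.15 ± 0.22 (adjusted p = 0.0934). The chemokine CCL26 stood at 1.68 and 3.55 FPKM against 5.25 and 7.72, a difference of -1.08 ± 0.32 (adjusted p = 0.183). In each of these 6 genes the 2 groups did not overlap, which the rule that named them required. For low values the log2(FPKM + 1) scale understates the ratio: TERT had a ratio of 6.06 between the group means.

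The same genes could be read in the 4 libraries made after serum. The differences in the 2 conditions share no library. Their p-values do, because all 8 libraries gave the spread of each gene. Calls, and genes chosen by p, are therefore not independent between the conditions. After serum 43 genes were called higher (0.331%) and 64 lower (0.492%). ACTB stood there at 8676 and 7949 FPKM in G13R cells and at 2543 and 2615 in GFP cells, a difference of 1.69 ± 0.08 (limma adjusted p = 1.36e-05). HSPA6, at 15.8 and 15.5 FPKM against 1.88 and 1.44, differed by 2.65 ± 0.15, and HSPA1A and HSPA1B by 1.83 and 1.86 (adjusted p = 3.55e-05 for each of the 3). PMEPA1 stood at 84.3 and 95.2 FPKM against 81.6 and 100.4, a difference of -0.01 ± 0.12 with overlapping groups. DBNDD2 differed by -0.43 ± 0.10 (adjusted p = 0.0618). ACTB and the 3 HSP70 genes were thus called in both conditions, and PMEPA1 and DBNDD2 in normal growth only, but the difference between the conditions was not past the adjusted test for PMEPA1 (-0.98, adjusted p = 0.259) or DBNDD2 (0.35, adjusted p = 0.386).

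CAV1, TGFB2 and CCL26, which were not called in normal growth, were low after serum as well, with differences of -0.87, -1.07 and -1.88 (limma adjusted p = 0.0397, 0.0547 and 0.0443), and MMP3 was high, with 1.20 (adjusted p = 0.0443). TGF-beta targets did not keep their lean, with a median of -0.24 after serum against 0.35 in normal growth, nor did the ID and BMP genes, with -0.10 against 0.33, and these shifts were not tested over the lists. G2/M genes kept theirs, with 27 of 27 below 0 and a median of -0.31. Of the 433 genes that were higher in normal growth without overlap at an unadjusted limma p under 0.05, 266 (61.4%) had the same sign after serum, against 53.5% of all genes above 0. Of the 1529 that were lower, 1147 (75.0%) had the same sign, against 59.8% of all genes below 0. Over all 12996 genes the differences in the 2 conditions correlated at r = 0.179 (Spearman's rho = 0.205), which is across genes and carries no p. For 0 genes was the difference between the conditions past the adjusted limma test, and 1533 (11.8%) had an unadjusted p under 0.05.

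**Figure D4:**
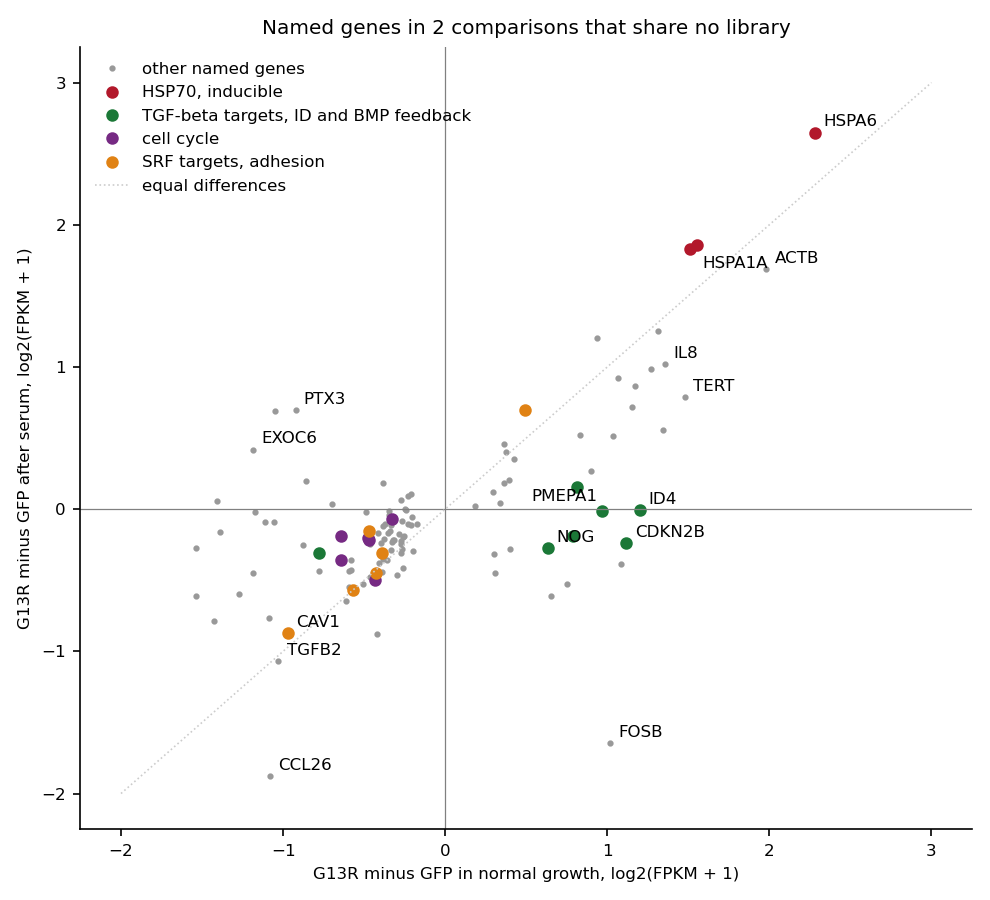
Each point is a named gene, with its difference between G13R and GFP cells in normal growth on the x axis and after serum on the y axis, both in log2(FPKM + 1). The dotted line marks equal differences. HSP70 genes and ACTB are high in both, and FOSB and PTX3 lie on opposite sides. Of the TGF-beta targets and BMP genes, PMEPA1 and ID4 lie right of 0 and near 0 on the y axis. NOG and CDKN2B lie right of 0 and below 0 on the y axis (-0.27 and -0.24), and TAGLN is below 0 on both axes.

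The filter on low values decided which genes were tested. Just inside it, with a second-highest value of 1.001 to 1.005 FPKM over the 8 libraries, were SCARNA10, DKFZP434I0714 and CA8. Just outside it, at 0.998 to 1.000, were FAM131B, RPA4 and HTN1.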

How the data were processed

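Poly(A)-selected RNA of U2OS cells was sequenced on an Illumina instrument, per the labels' protocols. The authors deposited 1 table of FPKM values for genes in all libraries. TopHat2 2.0.13 and Cufflinks 2.2.1, and the builds hg19 and BDGP5 (fly), are named per the submitters' processing notes, and the sources used here do not give the gene annotation. Each column was assigned to a library by its name (C was taken as normal growth), and 0 columns remained unassigned. FPKM keeps no counts, so depth is unknown and no count test was run. Reads of near-identical or overlapping genes are divided by estimation, which makes their values uncertain. In the deposited file, 28 symbols had become dates, and the 22 of them that were tested are not named.

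log2(FPKM + 1) was fitted in R 4.3.3 by limma 3.58.1 with an intensity trend and 1 mean for each of the 4 groups. The filter kept genes that reached 1 FPKM in 2 or more of 8 libraries. All 8 libraries gave the spread, with 4 residual degrees of freedom, and p-values were adjusted over 12996 genes by Benjamini-Hochberg. The fold scale understates changes of low genes. On simulated data with 200 changed genes the fit recovered 76 of 100 at 2-fold and 96 of 100 at 4-fold. The changed genes all had a mean log2(FPKM + 1) above 2, and the noise was independent and without a lean by level. These rates check the fit and are not the power of this comparison. In the data 33 genes were at least 2-fold higher and 31 lower, and 4 and 0 of them were called. Members and the 36 gene lists (683 genes, 635 tested) were chosen with earlier results of these data known, so no list was tested as a set. Named genes are the called genes, up to 15 each way with the largest difference among those with p under 0.01, no overlap and a mean of at least 2 FPKM, up to 3 of smallest p under 0.05 per list, and always the actin genes, HSPA1A, HSPA1B, HSPA6, HSPA8, HSF1, FOS, EGR1, SRF, VCL, CTGF, CYR61, MYC and POLR2A. Unnamed transcripts and genes under 200 bases were skipped. Genes outside that rule are named after their values were seen, as are further list members. Alternatives were another pseudocount, filters, scalings, limma settings, a replicate block and leaving out each library. Promoters are RefSeq sequences of GRCh38.p14, and gene spans are hg19 positions counted from 1, and the 2 are not mixed.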

Additional observations from a re-analysis of the deposited data

Results flagged for a closer look

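For 14 of the 130 named genes every G13R library lay on one side of every GFP library in normal growth and on the other side after serum. Such a reversal was not particular to the named genes. Of all genes without overlap at an unadjusted limma p under 0.05 in normal growth, 83 of 433 higher ones and 188 of 1529 lower ones reversed likewise. The value given is the difference after serum minus the difference in normal growth, in log2(FPKM + 1). None of the 14 passed the adjusted limma test of that difference, whose adjusted p ran from 0.259 to 0.362 over the 14. Higher in normal growth and lower after serum were FOSB (-2.66), CDKN2B (-1.36), CRYAB (-1.28), INSIG1 (-1.26), NOG (-0.91), MED14 (-0.75), FBXO32 (-0.68) and GABARAPL1 (-0.62), and the antisense RNA MATN1-AS1 (-1.47), whose reads cannot be told from those of its partner gene without strand. Lower in normal growth and higher after serum were PTX3 (1.62), EXOC6 (1.61), IFIT5 (0.57), POLR2B (0.32) and ACTG1 (0.32). In FOSB the difference was 1.02 in normal growth and -1.64 after serum, in NOG 0.63 and -0.27, and in PTX3 -0.92 and 0.69. Groups of 2 libraries do not allow a check for single outlying samples.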

How the results depend on the processing

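The number of calls depended on the settings more than the direction of the genes did. Against 5 genes called higher and 1 lower, there were 9 and 2 without the filter on low values, 6 and 8 with a filter at 5 FPKM, 9 and 3 after quantile normalization, 9 and 5 from the 4 normal growth libraries only, 5 and 0 without the trend, 5 and 6 without genes spanning under 200 bases (a setting chosen after seeing the data) and 4 and 0 with a 2-fold minimum added. Leaving out 1 library at a time gave 4 to 24 higher and 0 to 63 lower calls. The highest counts came without GFP serum replicate 1 (23 higher, 62 lower) or replicate 2 (24 and 63), whose replicate difference was the largest (median 0.186 against 0.131 to 0.143 in the other groups). With the replicate number as a replicate block there were 13 higher and 70 lower calls, but same-numbered libraries deviated together at r = 0.017 to 0.121, so the numbers were not taken to pair samples. Genes at an unadjusted p under 0.05, 434 higher and 1534 lower, became 848 higher without the filter, 656 and 634 after quantile normalization, and 921 lower after median-ratio scaling, and lay between 303 and 532 higher and 674 and 1898 lower when 1 library was left out, the lowest without G13R normal growth replicate 1, and 853 without GFP normal growth replicate 2. The causes were not tested. The median changed sign in 10 of 36 gene lists after quantile normalization and in 7 after median-ratio scaling. No named gene changed sign while called. ACTB, HSPA1A and HSPA1B lost their call only without the filter (adjusted p = 0.140 for ACTB, 0.103 for both HSP70 genes), and HSPA6 kept it in all 18 settings run. Count-based tests were not run, since the file holds no counts.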

Other observations

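2 gene families were looked at after their values were seen, so they are given as values only. Of 14 tubulin genes, which encode the subunits of microtubules, 6 had an unadjusted limma p under 0.05 and were lower in G13R cells in normal growth (11.8% of all genes). In 12 both G13R libraries were below both GFP libraries (34.3% of all genes). The median difference was -0.29 against -0.07 for all genes, at a median level of 77.8 FPKM. Abundant genes leaned low in general. Genes over 100 FPKM had a median of -0.17 with 42.7% past that p downward, and genes of 20 to 100 FPKM -0.11 with 17.3%. The part of level in the tubulin difference was not tested. TUBB stood at 456.8 and 508.5 FPKM in G13R cells and at 647.2 and 700.4 in GFP cells, a difference of -0.48 ± 0.09 (adjusted p = 0.093). TUBB4B stood at 301.2 and 329.7 FPKM against 408.4 and 459, a difference of -0.46 ± 0.09. Near-identical tubulin genes can share reads.

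FTH1, the ferritin heavy chain that stores iron, stood at 2933 and 2888 FPKM in G13R cells and at 2155 and 2155 in GFP cells, a difference of 0.43 ± 0.08 (limma adjusted p = 0.076). HMOX1, haem oxygenase 1, stood at 85.6 and 78.8 FPKM against 60.1 and 54.6, a difference of 0.51 ± 0.14. Of 12 such genes linked to iron and oxidant defence, 3 had an unadjusted p under 0.05 upward and 0 downward in normal growth. When either GFP serum library was left out, 85 genes were called in both fits, 23 higher and 62 lower. In each of them the normal growth groups did not overlap, but the calls used these same libraries, so this adds no support. Of the 23 and 62, 17 and 57 had the same sign after serum, against 53.5% of all genes above 0 and 59.8% of all genes below 0.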
